A study of Mus musculus with 30 samples.

Results

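The forebrains of the control animals of 2 experiments on interleukin-34 (IL-34) were compared: mice that carry 1 copy of Il34 (Het) against wild-type mice that received an antibody to gp120, the control antibody (a-gp120). The comparison holds the 8 forebrain libraries of these arms, 4 per arm, out of 30 libraries from 15 animals, and its members were taken from the genotype, treatment and tissue labels. The Het libraries are those of animals 1, 20, 21 and 23, and the a-gp120 libraries those of animals 1, 15, 7 and 8, numbered separately in each experiment. Each arm had 2 males and 2 females. Het animals were the controls of a knockout experiment and no antibody is named for them, whereas a-gp120 animals were wild type and belonged to an antibody experiment. Animals of both arms were perfused with saline, forebrain was collected, and CD11b-positive cells were isolated with an antibody from one side of the brain, per the labels. Libraries came from total RNA with the SMART-Seq v4 kit. Strain, age, littermates and antibody dose are not given in the sources used here. The number of Il34 copies, the experiment with whatever batch it brought, and the control antibody change together between the arms, and their effects cannot be told apart in any value below.

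IL-34 is a cytokine made mainly by neurons in the brain, and it signals through CSF1R, the receptor it shares with CSF1. CSF1R signalling keeps microglia, the resident macrophages of the brain, alive and in their resting state. In bulk tissue, microglia make up a small share of the RNA, so their genes can be read only through transcripts that other brain cells hardly make.

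Total counts ran from 44.4 to 62.6 M in the Het libraries and from 15.5 to 75.2 M in the a-gp120 libraries, of which animals 8 (15.5 M) and 15 (16.6 M) were the shallowest. Y-linked counts matched the labelled sex in all 8 libraries. Each library's correlation with the mean of the others of its arm, on the log2 scale over genes, was 0.9972 to 0.9979 in Het and 0.9939 to 0.9966 in a-gp120, where animal 15 was the lowest. Marker lists of forebrain cells were detected throughout, with summed levels of 3765 to 5675 CPM for excitatory neurons and 7178 to 8224 CPM for astrocytes. Levels are counts per M reads (CPM) after TMM scaling of library sizes, and values per animal are listed in the order Het 1, 20, 21, 23 and a-gp120 1, 15, 7, 8. All log2 fold changes (log2FC) are Het minus a-gp120 unless another pair is named, so a negative value means lower in Het. Errors on them are standard errors (SE), taken as the size of the log2FC divided by the square root of its F statistic. A gene passed the test when its Benjamini-Hochberg adjusted p, over all genes tested with edgeR's quasi-likelihood F test in a model that held sex, was under 0.05.

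Microglial genes were lower and choroid plexus genes higher in Het than in a-gp120 forebrain, and Il34 itself was lower in Het. Of 19209 genes tested, 157 passed (0.817%), 38 higher (0.198%) and 119 lower (0.620%) in Het. An unadjusted p under 0.05 was reached by 2167 genes (11.3%), and DESeq2 called 425 (2.21%), 128 higher (0.666%) and 297 lower (1.55%). Without any test, 1389 genes (7.23%) had arms that did not overlap, 712 with Het higher (3.71%) and 677 with Het lower (3.52%). The count depended on single libraries. It was 415 without a-gp120 animal 15, and 67 without Het animal 21, 77 without Het animal 1, 83 without a-gp120 animal 1, 92 without Het animal 20 and 98 without a-gp120 animal 8. The median log2FC over all genes tested was 0.0025.

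**Figure D1:**
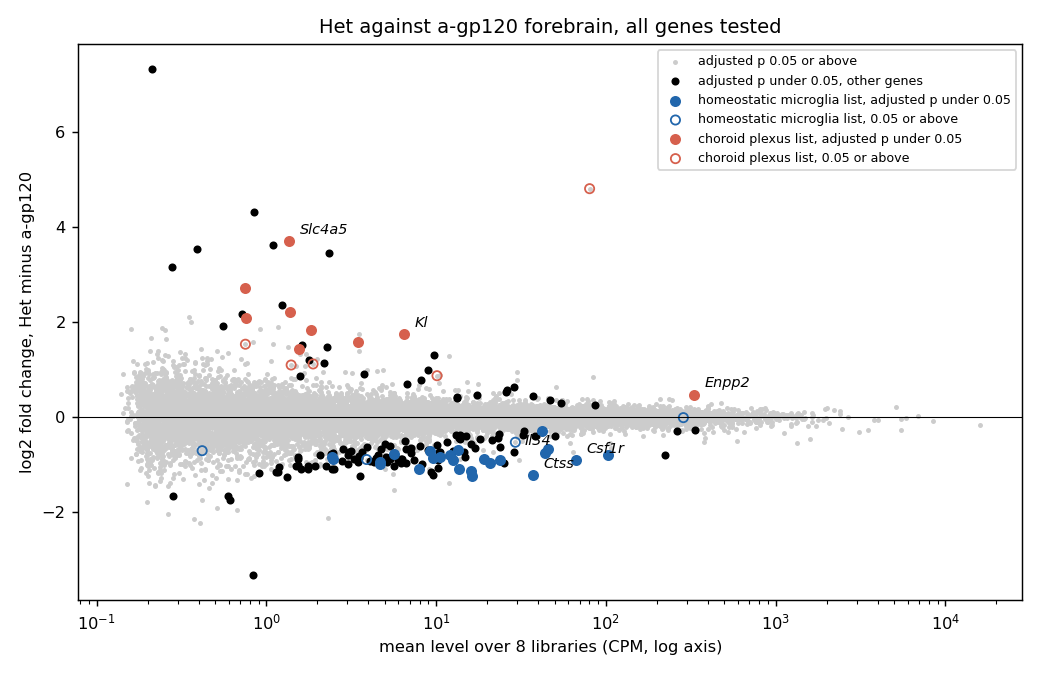
Log2 fold change, Het minus a-gp120 forebrain (vertical axis), against the mean level over the 8 libraries in CPM (log axis), 1 point per gene tested. Black and filled coloured points have an adjusted p under 0.05. The 24 called genes of the homeostatic microglia list (blue) all lie below 0, and the 9 called genes of the choroid plexus list (red) all lie above it.

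The gene whose copy number differs by label was measured first. Il34 (ENSMUSG00000031750, GRCm38 chr8:110741829-110805924, minus strand) stood at 23.4, 19.6, 19.2 and 23.6 CPM in Het and at 36.5, 31.9, 38.9 and 37.3 CPM in a-gp120. Every Het animal lay below every a-gp120 animal. The Het mean was 21.4 ± 2.37 CPM (SD, n = 4) and the a-gp120 mean 36.1 ± 3.02 CPM (SD, n = 4), so the fitted Het level was 59.4% of the a-gp120 level, with a log2FC of -0.75 (SE 0.088, edgeR adjusted p = 0.00206). Leaving out any 1 animal gave log2FC values from -0.82 to -0.68, all past the threshold. The direction matched the labels. Strand use in counting is not given in the sources used here, and the spans of 2 antisense models overlap Il34, but these held 82 and 23 counts over the 8 libraries against 10552 for Il34. None of the 40 genes that flank Il34, 20 on each side over 1.334 Mb, passed the test. Of these, 18 were expressed enough to be tested, with a median log2FC of -0.005, and 2 had an unadjusted p under 0.05, Hydin and one of the antisense models.

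Csf1, the other ligand of CSF1R, was measured at 13.1, 14.3, 14.7 and 15.1 CPM in Het and at 14.9, 11.1, 14.4 and 14.3 CPM in a-gp120. The arms overlapped, and the log2FC was 0.056 (SE 0.095, edgeR adjusted p = 0.899). Its sign rested on the low a-gp120 animal 15, since without that animal the value was -0.037. The proteins PTPRZ1 and syndecan 1 are also known to bind IL-34, and their genes showed small differences that did not pass, with log2FC values of 0.07 (SE 0.06) for Ptprz1 and 0.05 (SE 0.23) for Sdc1.

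The shared receptor was lower in Het. Csf1r (GRCm38 chr18:61100598-61132149) stood at 48.9, 44.0, 43.7 and 46.8 CPM in Het and at 90.0, 64.9, 95.6 and 97.1 CPM in a-gp120. No Het animal reached the lowest a-gp120 animal, which was again animal 15. Its log2FC was -0.92 (SE 0.10, edgeR adjusted p = 0.00153), a Het level 52.8% of that in a-gp120. In bulk tissue, fewer microglia and less of this RNA per microglial cell cannot be told apart.

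Genes that act downstream of CSF1R or beside it split by whether they passed. Trem2, a lipid receptor of microglia, was at 3.42, 3.61, 2.48 and 3.32 CPM in Het and at 6.10, 4.395, 6.99 and 7.11 CPM in a-gp120, a log2FC of -0.95 (SE 0.17, edgeR adjusted p = 0.0225). Pik3cg, the catalytic subunit of a PI3-kinase of leukocytes, was at 4.42, 4.42, 3.75 and 4.39 CPM in Het and at 6.28, 5.84, 7.25 and 6.52 CPM in a-gp120, a log2FC of -0.61 (SE 0.11, edgeR adjusted p = 0.0274). The arms did not overlap for either gene, but the call on each was lost without Het animal 21 (edgeR adjusted p = 0.0852 for Trem2 and 0.116 for Pik3cg) and, for both, without Het animals 1 or 23 or a-gp120 animals 1, 7 or 8. Tyrobp, the signalling adaptor of TREM2, had a log2FC of -0.90 with an adjusted p of 0.0591, and Spi1, the gene of the macrophage transcription factor PU.1, had -0.78 with 0.0587. Both fell short in edgeR and both passed without a-gp120 animal 15 (edgeR adjusted p = 0.0105 and 0.0248). The kinase gene Syk (-0.41) and the phospholipase gene Plcg2 (-0.33) did not pass, nor did Hcst (0.38), which encodes another adaptor. Grb2 (-0.05) and Cbl (-0.02), adaptors found in most cells, differed little. Over the whole list of IL-34 and CSF1 signalling, 4 of 15 tested members were lower, against 0.620% of all genes, and 0 higher, with a median log2FC of -0.36. The 4 were Pik3cg, Il34 itself, whose copy number differs by label, and Csf1r and Trem2, which are counted again in the homeostatic microglia list below.

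**Figure D2:**
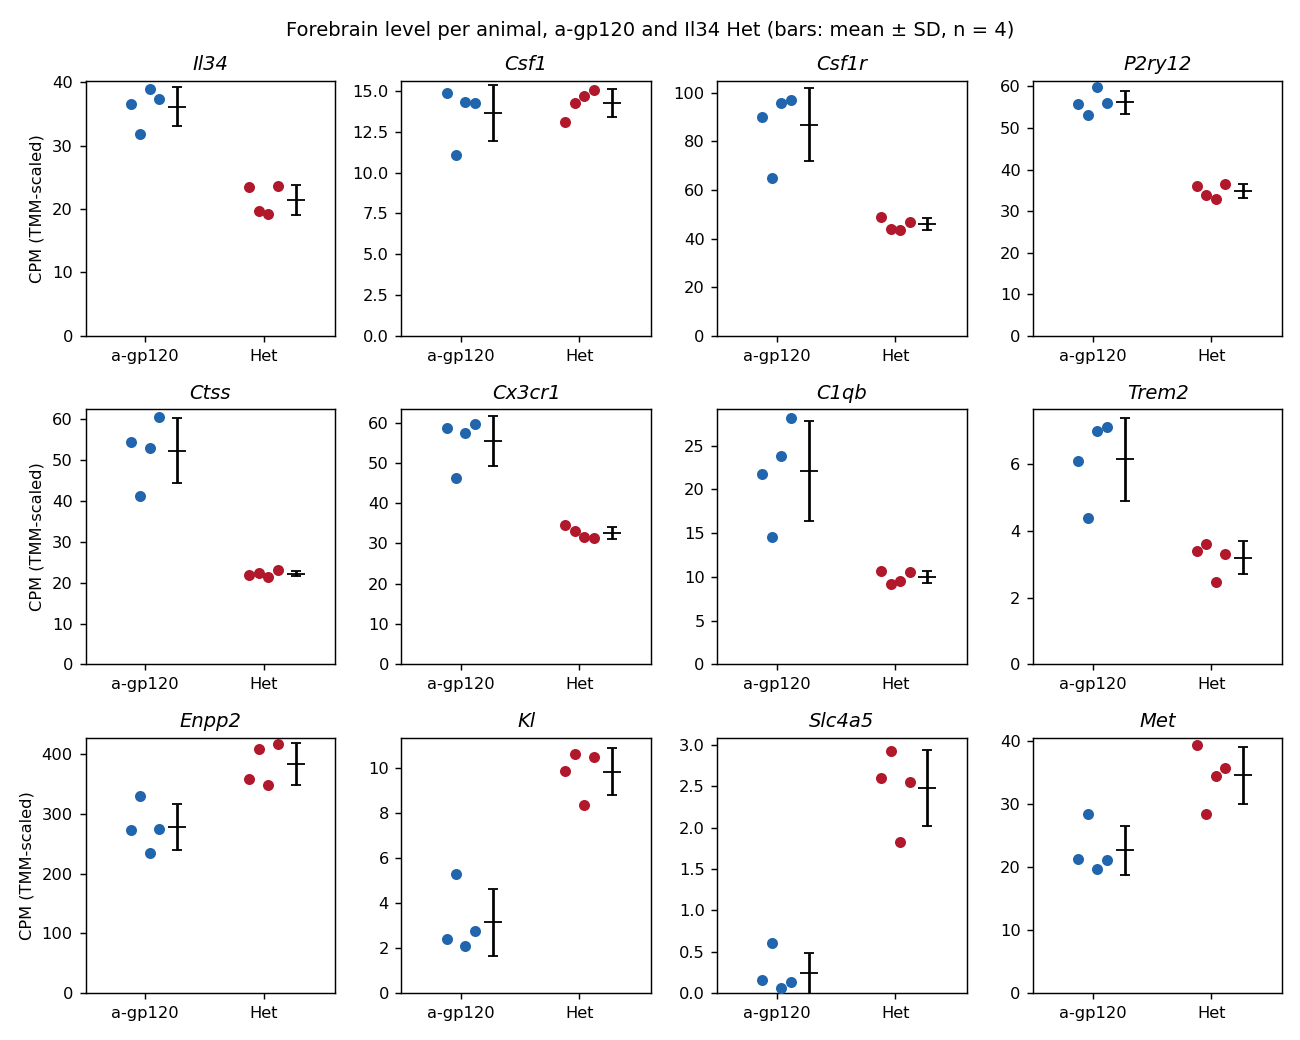
Forebrain level of 12 genes in each animal, in CPM after TMM scaling (vertical axes start at 0), with a-gp120 animals in blue and Het animals in red, and bars for the mean ± SD (n = 4 per arm). The arms separate for the genes shown except Csf1, and the single high a-gp120 point for Kl and Slc4a5 and the low a-gp120 point for Csf1r and C1qb are animal 15.

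Genes that mark homeostatic microglia were lower in Het. Of 30 such genes listed, 28 were tested, and 24 were lower and 0 higher in Het, against 0.620% lower among all genes tested. Their median log2FC was -0.88. DESeq2 called 26 lower, against 1.55% of all genes, and for 25 the arms did not overlap, against 3.52%. The 4 that did not pass were Sparc (-0.02), which other brain cells also make, Sall1 (-0.54), Tyrobp and Gpr84 (-0.72). The summed level of the list was 669 to 743 CPM in Het and 859 to 1119 CPM in a-gp120, without overlap, and the lowest a-gp120 value was that of animal 15. This sum holds Sparc, which had 108425 counts over the 8 libraries, the most of any member. The number lower was 25 without animal 15, 18 without both shallow a-gp120 libraries, 21 after all libraries were thinned to 1 depth, and 16 to 25 when any 1 animal was removed. Itgam, which encodes CD11b, is listed at 0 in all 8 libraries and Irf8 at 0 in all 30. Several genes used by every cell are listed at 0 as well, among them Rpl13 and Cox4i1, so these zeros do not show absence.

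Ctss, which encodes the lysosomal protease cathepsin S, had the smallest p of all genes. It stood at 21.9, 22.5, 21.5 and 23.0 CPM in Het and at 54.5, 41.3, 52.8 and 60.4 CPM in a-gp120. The 4 Het animals lay within a narrow band, far under the lowest a-gp120 animal. The log2FC was -1.23 (SE 0.096, edgeR adjusted p = 0.000664), a Het level 42.5% of that in a-gp120. P2ry12, a purine receptor that guides microglial processes, was at 36.1, 33.8, 32.9 and 36.5 CPM in Het and at 55.7, 53.0, 59.9 and 55.9 CPM in a-gp120, a log2FC of -0.69 (SE 0.059, edgeR adjusted p = 0.00101), with no overlap. P2ry13, a related receptor, had a log2FC of -0.72 and Gpr34, a lysophospholipid receptor, -0.81. All 3 lie inside or across the span of another gene, Med12l for the first pair and Cask for Gpr34, on which some reads could be counted.

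Cx3cr1, the fractalkine receptor, was at 34.6, 33.1, 31.6 and 31.3 CPM in Het and at 58.7, 46.2, 57.4 and 59.6 CPM in a-gp120, a log2FC of -0.76 (SE 0.075, edgeR adjusted p = 0.0011). Its annotated span covers several neighbouring genes. Siglech, a sialic acid-binding lectin of microglia, was at 14.7, 13.3, 13.3 and 14.5 CPM in Het and at 29.8, 21.8, 28.7 and 29.6 CPM in a-gp120, a log2FC of -0.98 (SE 0.093, edgeR adjusted p = 0.0011). For both genes the arms did not overlap, and a-gp120 animal 15 was the lowest of its arm. Other genes named by rank were Mpeg1 (log2FC -0.97), a pore-forming protein of macrophages, Laptm5 (-0.90), a lysosomal membrane protein, Fyb1 (-0.99), an adaptor of blood cells, and Hpgds (-0.74), a prostaglandin D synthase.

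Complement C1q, which microglia make in the brain and which tags synapses for removal, showed the same order. C1qa, C1qb and C1qc had log2FC values of -1.10, -1.14 and -1.25 (edgeR adjusted p = 0.0059, 0.00466 and 0.00342). C1qc was at 10.4, 9.21, 8.66 and 10.1 CPM in Het and at 21.9, 14.9, 26.2 and 28.6 CPM in a-gp120. Animal 15 was the lowest of its arm and still lay above every Het animal. Tmem119, a surface marker of microglia, had a log2FC of -0.87 (edgeR adjusted p = 0.0232). That call was lost without Het animals 20, 21 or 23 or a-gp120 animals 7 or 8 (edgeR adjusted p from 0.0525 to 0.0748). Cd33, a Siglec, had -0.69 and Tgfbr1, a receptor subunit for TGF-beta, -0.29, and both passed, but Tgfbr1 passed in only 1 of the 8 fits with an animal removed, the one without a-gp120 animal 15.

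Promoters of genes lower in Het were searched for set short sequences, and examples that held 1 of them, GAGGAAGT, are shown. The sequence GAGGAAGT, the core of a binding site for PU.1, was searched on both strands in the 300 bases from 250 before to 50 after the start of each gene (RefSeq, GRCm38.p6). It was found in 13 of the 87 lower genes that have a promoter in that table (14.9%), in 368 of 13018 tested genes (2.83%) and in 887 of all 27025 promoters (3.28%). In 12 of those 13 it lay within 50 bases of the start, against 172 of the 368. The shorter GAGGAA, which is part of it, was in 52.9% of the lower genes and 26.8% of tested genes, whereas TAATCC, the core of OTX sites, was in 5.75% and 5.96%. Among the 25 higher genes with a promoter, 1 held GAGGAAGT and 11 (44%) held GAGGAA, as did 4 of 9 choroid plexus promoters (44.4%). These shares are descriptions of the letters and were not tested. No share was computed for genes enriched in CD11b-positive cells but not called lower. Whether the shares are particular to genes lower in Het therefore cannot be said. The promoters of Ctss (GRCm38.p6 chr3:95526536-95526835, plus strand), Hpgds (chr6:65144681-65144980, minus strand) and Pik3cg (chr12:32208610-32208909, minus strand) read as follows, 5′ to 3′ on the gene's strand, with the match on either strand in capitals.
Ctss: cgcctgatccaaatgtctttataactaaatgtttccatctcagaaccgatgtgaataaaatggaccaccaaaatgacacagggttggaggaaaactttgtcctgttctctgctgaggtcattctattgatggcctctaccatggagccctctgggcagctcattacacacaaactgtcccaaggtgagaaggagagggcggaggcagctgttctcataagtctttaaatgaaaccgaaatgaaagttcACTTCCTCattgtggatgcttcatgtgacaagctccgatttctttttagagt
Hpgds: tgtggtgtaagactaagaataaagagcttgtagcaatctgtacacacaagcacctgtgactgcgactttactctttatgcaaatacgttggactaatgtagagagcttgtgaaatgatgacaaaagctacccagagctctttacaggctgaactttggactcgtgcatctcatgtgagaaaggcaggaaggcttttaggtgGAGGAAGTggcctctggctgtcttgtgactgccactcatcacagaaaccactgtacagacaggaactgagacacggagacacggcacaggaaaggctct
Pik3cg: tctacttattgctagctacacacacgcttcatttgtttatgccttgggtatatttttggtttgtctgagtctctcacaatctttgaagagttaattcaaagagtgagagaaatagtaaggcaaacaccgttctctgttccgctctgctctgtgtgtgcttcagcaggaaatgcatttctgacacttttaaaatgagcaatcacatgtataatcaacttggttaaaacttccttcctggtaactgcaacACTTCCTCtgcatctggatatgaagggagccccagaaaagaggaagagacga

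In Ctss and Pik3cg the match reads as ACTTCCTC, its reverse complement, and begins 2 bases before the start. In Hpgds it reads forward and begins 49 bases before the start. Of the homeostatic list, 2 of 21 promoters held it (9.52%), so most members of that list do not carry these letters in the window.

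Most genes lower in Het were enriched in the CD11b isolates of the control animals. Of the 119, 108 (90.8%) had a mean level over 4 times higher in the isolates than in forebrain, against 10.8% of all genes tested. Of the 38 genes higher in Het, 21 (55.3%) passed the same cutoff, so this enrichment was not particular to the lower genes. The isolate libraries are other libraries of the same animals. Genes enriched in the isolates but not called lower numbered 1972, with a median log2FC of -0.09.

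Genes for Fc receptors, which bind antibodies, were among the lower ones, and only the a-gp120 arm is labelled with an antibody. Of 10 genes listed 7 were tested, and 4 were lower, against 0.620% of all genes, and 0 higher, with a median log2FC of -0.75. Fcgr1, the high-affinity receptor for IgG, was at 2.51, 2.20, 1.65 and 2.09 CPM in Het and at 5.57, 4.395, 5.22 and 4.87 CPM in a-gp120, a log2FC of -1.25 (SE 0.15, edgeR adjusted p = 0.00206). Fcgr3 (-1.17), Fcgr2b (-0.96) and Fcer1g (-0.75), the shared signalling chain, passed too, and the arms did not overlap for any of the 4. Without Het animal 1, Het animal 20 or a-gp120 animal 1, 2 of the 4 passed, and without Het animal 21, 1 did. Fcgrt (-0.11), Trim21 (-0.30) and Fcgr4 (-0.56) did not pass. These receptors are made by microglia, whose marker list had a median of -0.88, and the part of the antibody in their difference was not tested.

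Of 13 transcription factors of microglia tested, 2 were lower, against 0.620% of all genes, Ikzf1 (log2FC -0.68, edgeR adjusted p = 0.0295) and Irf5 (-0.76, edgeR adjusted p = 0.0439). A negative value was found for 12 of them, with a median of -0.36. For 6 the arms did not overlap with Het lower, against 3.52% of all genes, and DESeq2 called 5 lower, against 1.55%. Each animal left out in turn, other than a-gp120 animal 15, ended both calls. Markers of disease-associated microglia, a state seen around amyloid, held 1 gene of 19 that passed, against 0.198% of all genes higher, with a median log2FC of -0.07 and 14 negative values. The summed level was 1466 to 1602 CPM in Het and 1456 to 1818 CPM in a-gp120. The gene that passed was Lpl, a lipoprotein lipase that neurons and other cells also make, which was higher (0.45, edgeR adjusted p = 0.0439), a call that was kept without a-gp120 animals 7 or 15 and lost without any 1 of the others (edgeR adjusted p from 0.0521 to 0.188). Lyz2, with -0.79, missed the threshold (edgeR adjusted p = 0.0536). None of the 12 genes of border-associated macrophages passed, with a median of -0.27 and summed levels of 33.0 to 40.8 CPM in Het and 38.1 to 46.7 CPM in a-gp120. Of these macrophage genes, Mrc1 had a log2FC of -0.30 and Folr2 0.59. Whether their differences differ from those of the homeostatic list was not tested.

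Of 12 neutrophil and monocyte genes, 7 were expressed enough to be tested and 1 was lower, against 0.620% of all genes, Csf3r (-0.98, edgeR adjusted p = 0.00632), the receptor of G-CSF, which microglia also make. The granule genes S100a8 and S100a9 had log2FC values of -2.16 and -1.96, at under 2 CPM in every animal, and did not pass. The list's summed level was 5.97 to 10.1 CPM in Het and 9.44 to 16.6 CPM in a-gp120. Haemoglobin and other erythroid genes had a median of -0.55 with 0 of 5 called. Of 13 genes of MHC class I and II and their loading, 1 was lower, against 0.620% of all genes, B2m (-0.41, edgeR adjusted p = 0.0225), the light chain of class I, a call lost without Het animals 1, 20 or 21 or a-gp120 animal 1 (edgeR adjusted p from 0.0804 to 0.12).

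Of 19 interferon-response genes tested, 2 were lower, against 0.620% of all genes, with a median log2FC of -0.69 against 0.0025 over all genes. For 8 the arms did not overlap with Het lower, against 3.52%, and DESeq2 called 3 lower, against 1.55%. Ifit3 was at 2.67, 2.94, 3.22 and 2.44 CPM in Het and at 7.60, 5.06, 4.37 and 4.34 CPM in a-gp120 (log2FC -0.94, SE 0.18, edgeR adjusted p = 0.0376). Lgals3bp, a secreted glycoprotein, was at 6.54, 7.34, 6.50 and 7.11 CPM in Het and at 14.7, 8.97, 11.5 and 9.08 CPM in a-gp120 (log2FC -0.69, SE 0.14, edgeR adjusted p = 0.0469). The arms did not overlap for either gene, and a-gp120 animal 1 was the highest for both. Without that animal neither gene passed (edgeR adjusted p = 0.0967 and 0.108), and 0 of the 19 did. The count was also 0 without Het animals 1, 20, 21 or 23.

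Genes of the choroid plexus, the epithelium in the ventricles that makes cerebrospinal fluid, were higher in Het. All 14 listed genes had a positive value, 9 were higher in Het and 0 lower, against 0.198% higher among all genes tested, and the median log2FC was 1.66. For 12 the arms did not overlap, against 3.71% of all genes with Het higher, and the same number passed in DESeq2, against 0.666%. Slc4a5, a bicarbonate transporter, was at 2.60, 2.92, 1.83 and 2.55 CPM in Het and at 0.159, 0.602, 0.056 and 0.132 CPM in a-gp120, a log2FC of 3.69 (SE 0.37, edgeR adjusted p = 0.0011). Kl, the co-receptor Klotho, was at 9.88, 10.6, 8.35 and 10.5 CPM in Het and at 2.39, 5.30, 2.08 and 2.76 CPM in a-gp120, a log2FC of 1.74 (SE 0.18, edgeR adjusted p = 0.0011). Both genes separated the arms, with a-gp120 animal 15 the nearest to Het. Enpp2, the lysophosphatidic acid-making enzyme autotaxin, which oligodendrocytes make as well, was at 358, 409.6, 349.5 and 417 CPM in Het and at 274, 329.5, 235 and 275 CPM in a-gp120, a log2FC of 0.46 (SE 0.068, edgeR adjusted p = 0.00788). Its call was lost without Het animal 1 (edgeR adjusted p = 0.0516).

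Sostdc1, a BMP and WNT antagonist (log2FC 1.83), Kcne2, a potassium channel subunit (2.72), Folr1, a folate receptor (2.20), Calml4 (2.08), F5, a clotting factor (1.58), and Otx2, a transcription factor (1.43), passed as well. The call on Otx2 was lost on removal of any 1 animal but a-gp120 animal 15 (edgeR adjusted p from 0.0508 to 0.154), and the other 5 kept theirs. Ttr, the transthyretin carrier that is the hallmark of this epithelium, did not pass (edgeR adjusted p = 0.0558). It was at 148, 162, 126 and 162 CPM in Het and at 0.252, 43.4, 0.372 and 0.066 CPM in a-gp120. Thus 3 of the 4 a-gp120 animals had almost none and animal 15 had some, and the SE of its log2FC (4.80) was 1.01. Without animal 15 its log2FC was 8.98 (edgeR adjusted p = 2.96e-10). The summed level of the list was 511 to 628 CPM in Het and 249.9 to 397 CPM in a-gp120, where animal 15 was the highest. Enpp2 made up 64.6 to 68.0% of this sum in Het and 82.4 to 96.1% in a-gp120. Without Enpp2 the sum was 164.5 to 213 CPM in Het and 11.3 to 70.6 CPM in a-gp120, again highest in animal 15. Without animal 15 the list had 12 members higher and a median of 1.91. How much choroid plexus was kept in each dissection is not recorded in the sources used here, and its part in these differences was not tested.

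Ciliated ependymal cells line the same ventricles. Of 11 of their genes tested, 1 was higher, against 0.198% of all genes, Ccdc153 (log2FC 0.85, edgeR adjusted p = 0.0439). A positive value was found for 10, with a median of 0.31, and for 4 the arms did not overlap with Het higher, against 3.71% of all genes. Its call was lost without Het animal 1 (edgeR adjusted p = 0.187) and without most other single animals. The summed ependymal level was 38.3 to 41.5 CPM in Het and 30.8 to 39.6 CPM in a-gp120, which overlap.

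**Figure D3:**
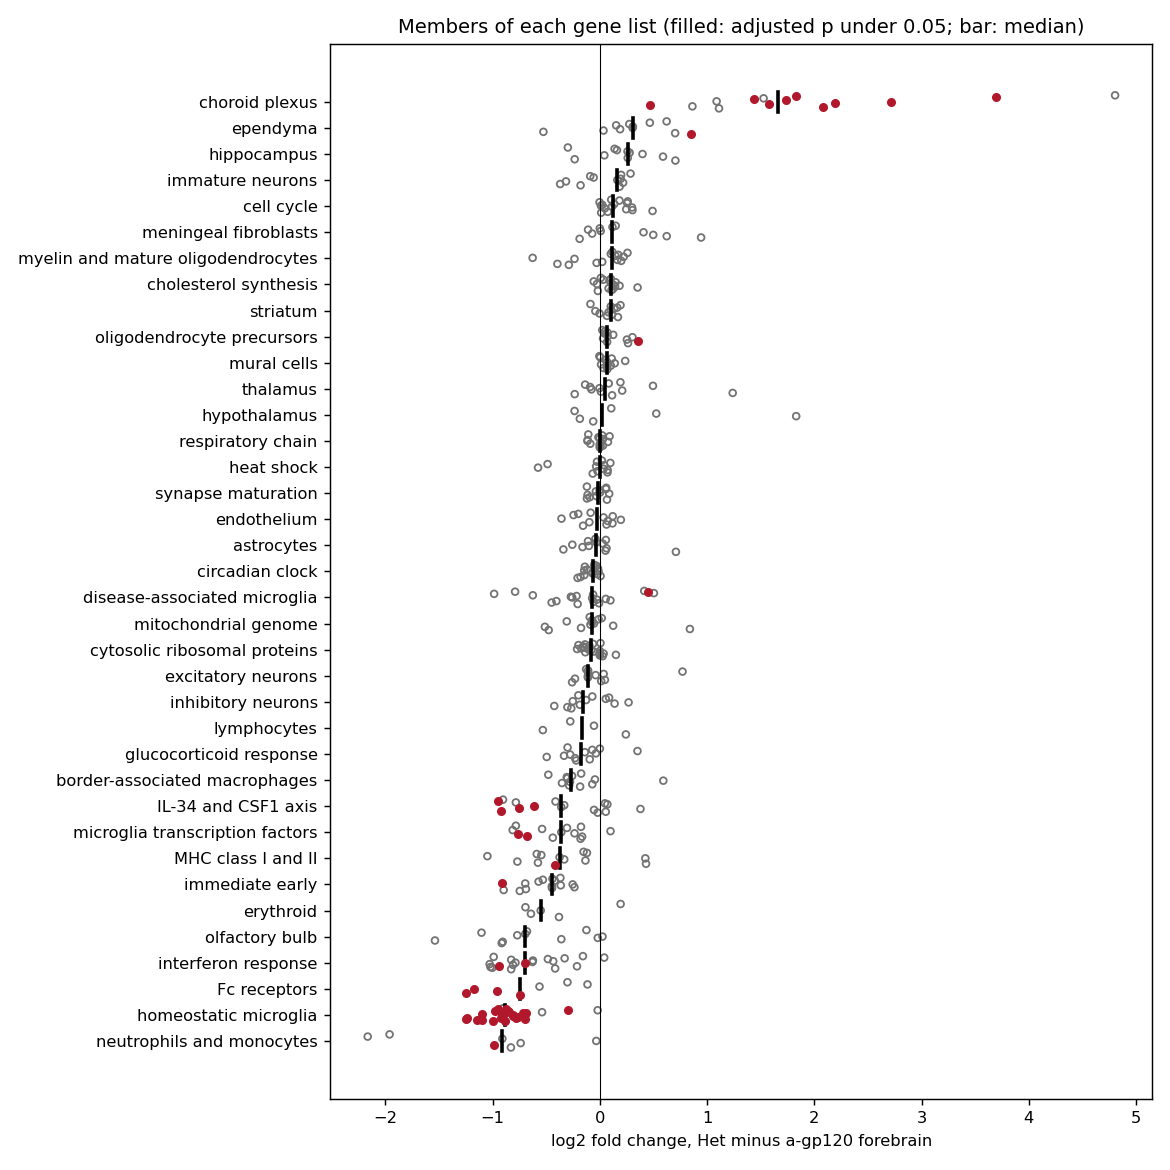
Log2 fold change of each tested member of each gene list, Het minus a-gp120 forebrain, with lists ordered by their median (black bar). Filled points have an adjusted p under 0.05. The homeostatic microglia list, with a median of -0.88, and the choroid plexus list, with 1.66, hold most of the filled points.

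Several genes higher in Het had no place in those lists. Met, the receptor of hepatocyte growth factor, was at 39.5, 28.5, 34.5 and 35.8 CPM in Het and at 21.2, 28.5, 19.7 and 21.2 CPM in a-gp120, a log2FC of 0.63 (SE 0.12, edgeR adjusted p = 0.0408). Het animal 20 and a-gp120 animal 15 nearly met, at 28.51 and 28.48 CPM. Cd93, a lectin-like receptor of endothelial cells, was at 31.8, 30.3, 30.4 and 29.8 CPM in Het and at 19.7, 20.9, 24.5 and 19.7 CPM in a-gp120, a log2FC of 0.53 (SE 0.074, edgeR adjusted p = 0.00619), with a clear gap between the arms, though it missed the threshold without both shallow libraries (edgeR adjusted p = 0.0958). Others named by rank were the collagen genes Col8a1 (0.78) and Col9a3 (0.57), Abca4 (0.68), a retinoid transporter, Tnc (0.45), which encodes tenascin C, and Frem2 (0.41). Of these genes other than Cd93, the calls on Met, Tnc, Frem2, Abca4, Col8a1 and Col9a3 were each lost on removal of at least 4 of the 8 animals taken singly. Pisd-ps2 (0.98) and Pisd-ps1 (0.40), pseudogenes of a phosphatidylserine decarboxylase, were also higher, but reads from near-identical copies could be split among them and their values are uncertain.

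Enpp6, a choline phosphodiesterase of newly formed oligodendrocytes, was at 50.6, 60.9, 50.2 and 50.3 CPM in Het and at 40.5, 44.6, 39.2 and 41.0 CPM in a-gp120, a log2FC of 0.36 (SE 0.066, edgeR adjusted p = 0.0298). It was the 1 gene of 12 on the oligodendrocyte precursor list to pass, against 0.198% of all genes higher, and all 12 had a positive value, with a median of 0.07. For 5 of the 12 the arms did not overlap with Het higher, against 3.71% of all genes, and DESeq2 called 4 higher, against 0.666%. Its call was lost without Het animal 1 (edgeR adjusted p = 0.129). Bcas1 (0.26), Neu4 (0.30) and Gpr17 (0.25), which mark the same step, separated the arms without passing (edgeR adjusted p = 0.104, 0.109 and 0.136). Myelin genes had a median of 0.11 with 0 of 14 called.

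The lists of excitatory neurons (median -0.11), inhibitory neurons (-0.16), immature neurons (0.16), synapse maturation (-0.02), astrocytes (-0.04), endothelium (-0.03), mural cells (0.07) and meningeal fibroblasts (0.12) held 0 genes called by edgeR each. So did those of the striatum (0.10), hippocampus (0.26) and thalamus (0.05), the cell cycle (0.12), ribosomal proteins (-0.08), the respiratory chain (-0.00075) and cholesterol synthesis (0.10), and likewise the hypothalamus (0.02), lymphocytes (-0.16), glucocorticoid response (-0.18), circadian clock (-0.07), heat shock (-0.00089) and the mitochondrial genome (-0.07). Of these lists, DESeq2 called 2 immature neuron and 2 meningeal fibroblast genes and 1 thalamus gene higher, against 0.666% of all genes, and 1 hippocampus and 1 endothelium gene lower, against 1.55%. Olfactory bulb genes had a median of -0.69 with 0 of 11 called, and their summed level ran from 304 to 443 CPM in Het and from 304 to 619 CPM in a-gp120. Of the immediate early genes, which follow neuronal activity, 15 of 15 had a negative value, with a median of -0.45, and 1 was lower, against 0.620% of all genes, Fosb (-0.91, edgeR adjusted p = 0.0132). Fosb overlapped between the arms (2.46 to 5.73 CPM in Het and 4.30 to 11.0 CPM in a-gp120) and did not pass without sex in the model (edgeR adjusted p = 0.257), nor without Het animals 20 or 21 (0.0597 and 0.0627).

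Among the genes lower in Het, 11 were not enriched in the isolates over 4 times. They were Il34, Serpina3n, Atp10a, Lrrc7, H1f2, Nrsn1, Tnfaip6, Mkx, Cyp4f15, Dynlt1b and Tmem181b-ps, named here because they are few, after their values were seen. Tmem181b-ps, a pseudogene, was at 165, 162, 157 and 169 CPM in Het and at 303, 312, 231 and 292 CPM in a-gp120, a log2FC of -0.80 (SE 0.079, edgeR adjusted p = 0.0011). Dynlt1b, one of several near-identical dynein light chain genes, had -1.004 (edgeR adjusted p = 0.00512). Both could share reads with copies and are uncertain. Serpina3n, an acute-phase protease inhibitor of astrocytes, had -0.90 (edgeR adjusted p = 0.0359), and the neuronal genes Lrrc7 and Nrsn1 had -0.29 and -0.31. The calls on Serpina3n, Lrrc7 and Nrsn1 were each lost on removal of at least 5 of the 8 animals taken singly, whereas those on Tmem181b-ps and Dynlt1b were kept throughout.

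The same pair of experiments also has arms with Il34 deleted or IL-34 targeted, from other animals: Il34 knockout (KO, 3 animals) and wild-type mice given an antibody to IL-34 (a-IL34, 4 animals). Whether the antibody neutralised IL-34 was not measured in these libraries. KO minus a-IL34 sets these arms side by side. In that comparison 89 of 17390 genes passed (0.512%), 7 higher (0.0403%) and 82 lower (0.472%) in KO, and 1846 (10.6%) had an unadjusted p under 0.05 and 249 (1.43%) passed in DESeq2. The count rested on single animals, since 2 passed without either KO animal 3 or a-IL34 animal 11, 19 without KO animal 24 or 6, and 144 and 146 without a-IL34 animals 2 and 10. Of the 119 genes lower in Het, 117 were tested there, 115 had the same sign, against 11777 of all 17379 genes tested in both, and 29 were also lower. Of the 38 genes higher in Het, 33 of 35 had the same sign, to be read against the same share of all genes, and 0 were called by edgeR. Across 17379 genes the log2FC values of both comparisons had a Pearson r of 0.568 and a Spearman rho of 0.467, given as a description, since genes are not independent replicates. The comparisons share no library, but they share the experiments.

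Whether the difference between experiments itself differed between these pairs of arms was tested over the 15 forebrain libraries. It did for 2 of 19724 genes (0.0101%), Il34 and Lgals3bp, with 605 genes (3.07%) at an unadjusted p under 0.05 and 28 (0.161%) called by DESeq2. The count was 33 without a-IL34 animal 10 and 5 without a-IL34 animal 11. Il34 averaged 36.1 ± 3.03 CPM in a-gp120, 38.3 ± 2.15 in a-IL34, 21.4 ± 2.37 in Het and 7.72 ± 0.99 in KO (SD, n = 4, 4, 4 and 3). KO minus a-IL34 was -2.40 in its own fit, and the difference between the comparisons in the fit of 15 libraries was 1.58 (edgeR adjusted p = 2.45e-05). The a-IL34 and a-gp120 means differed by less than the SD of a-gp120, and KO was the lowest arm, with Il34 reads still counted. Lgals3bp averaged 11.0 ± 2.67 CPM in a-gp120, 6.87 ± 0.42 in Het, 32.2 ± 5.39 in a-IL34 and 5.56 ± 0.88 in KO, and the difference in that fit was 1.76 (edgeR adjusted p = 0.00372). The interferon list as a whole was highest in a-IL34, with summed levels of 181 to 407 CPM against 58.4 to 117 CPM over the other 3 arms.

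The homeostatic microglia list fell into an order of the 4 arms, and so did Csf1r and P2ry12. The summed homeostatic level, which holds Sparc of other brain cells as well, was 1027 ± 114 CPM in a-gp120, 700.3 ± 35.1 in Het, 578 ± 56.1 in a-IL34 and 409.7 ± 20.9 in KO (SD). No 2 arms overlapped. Csf1r averaged 86.8 ± 15.0, 45.8 ± 2.48, 36.9 ± 4.92 and 16.9 ± 1.44 CPM in that order, and P2ry12 56.1 ± 2.84, 34.8 ± 1.74, 12.7 ± 0.90 and 9.50 ± 1.26 CPM. In KO minus a-IL34, 8 of 27 tested members were lower, against 0.472% of all genes, with a median of -0.75, against -0.88 in Het minus a-gp120. Over all genes that comparison had 89 calls, and 2 without KO animal 3 or without a-IL34 animal 11. No member's difference between the comparisons passed.

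Choroid plexus genes, Cd93 and Met, which were higher in Het, are given here in all 4 forebrain arms. The summed choroid level was 580 ± 53.7 CPM in Het and 517 ± 109 in KO, against 307 ± 63.7 in a-gp120 and 357 ± 123 in a-IL34 (SD). These sums hold Enpp2, which averaged 383 ± 34.7 CPM in Het, 348 ± 51.7 in KO, 278 ± 38.9 in a-gp120 and 307.5 ± 61.4 in a-IL34. KO minus a-IL34 had a median of 0.94 over the list, with 0 of 14 called. Cd93 averaged 30.6 ± 0.83 CPM in Het and 31.3 ± 3.98 in KO, against 21.2 ± 2.27 in a-gp120 and 19.2 ± 3.22 in a-IL34. Met averaged 34.5 ± 4.56 and 36.6 ± 5.66 CPM in the genotype experiment, against 22.6 ± 3.94 and 23.2 ± 4.71 in the antibody experiment. Tmem181b-ps, a gene lower in Het, was at 163 ± 5.04 CPM in Het, 168.5 ± 5.45 in KO, 284 ± 36.6 in a-gp120 and 219 ± 44.5 in a-IL34.

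The CD11b isolates of the same 8 animals were compared in the same way. There 333 of 17140 genes passed (1.94%), 324 higher (1.89%) and 9 lower (0.0525%) in Het, with 1568 (9.15%) at an unadjusted p under 0.05 and 748 (4.36%) called by DESeq2. The count fell to 67 without a-gp120 animal 8, 69 without Het animal 20, 85 without a-gp120 animal 7, 92 without Het animal 21, 130 without Het animal 23 and 136 without a-gp120 animal 15. All 14 choroid plexus genes were higher, with a median log2FC of 5.30 and summed levels of 2777 to 6111 CPM in Het against 108 to 214 CPM in a-gp120, and 9 of 11 ependymal genes were higher. Of the homeostatic list 0 of 28 passed, with a median of -0.29 and summed levels of 19550 to 33682 CPM in Het and 24459 to 34548 CPM in a-gp120, which overlap. P2ry12 had a log2FC of 0.01 in the isolates and -0.69 in forebrain, and Ctss -0.54 and -1.23. Over 16497 genes the forebrain and isolate log2FC values had a Pearson r of 0.456 and a Spearman rho of 0.267, as a description across genes of the same animals. Of the 119 genes lower in Het forebrain, 3 were lower in the isolates, where their median was -0.31 against -0.86 in forebrain. Of the 38 genes higher in Het forebrain, 25 were higher in the isolates too.

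**Figure D4:**
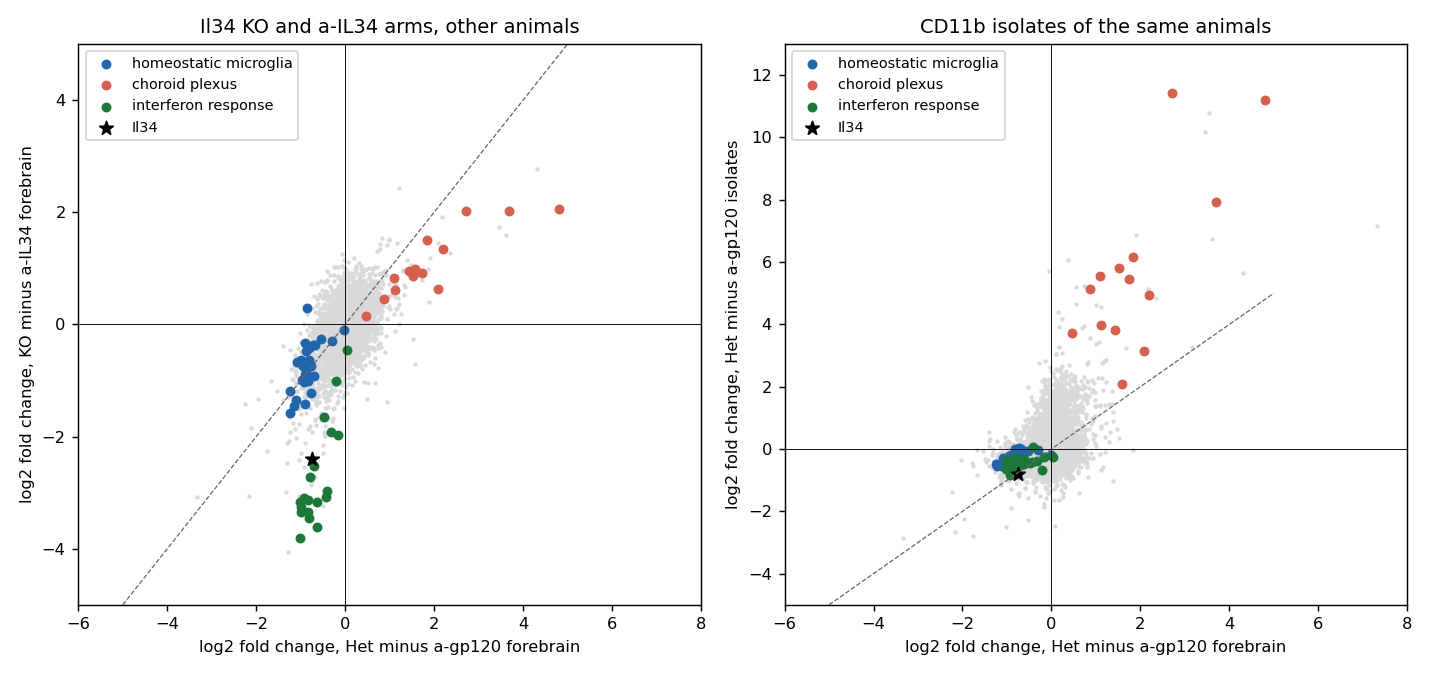
Log2 fold change, Het minus a-gp120 forebrain (horizontal axes), against KO minus a-IL34 forebrain (left) and against Het minus a-gp120 CD11b isolates (right), 1 point per gene tested in both, with dashed lines where both values are equal. Homeostatic microglia genes, but for Slc2a5, lie below 0 on both axes at left, with medians of -0.88 and -0.75, and nearer to 0 at right, where their median is -0.29, while choroid plexus genes lie above 0 in both panels.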

How the data were processed

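The authors deposited raw read counts per gene, not normalized, for 30 libraries. STAR 2.7.5c, featureCounts 1.6.3, R 4.4.0 and GRCm38 are named in the submitters' processing notes. Counting mode and strand are not given in the sources used here, and the deposited gene lengths equal the annotated span of the gene for 51183 of 51498 matched genes. The table held 6 further columns of values that match no sample used here.

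Groups came from the labels. Counts were tested with edgeR 4.0.16 (R 4.3.3): filterByExpr, TMM scaling, quasi-likelihood F test, sex as covariate, Benjamini-Hochberg threshold 0.05. DESeq2 1.42.0 was an alternative. The others were another scaling, other count filters, no sex term, all 15 forebrain libraries in 1 fit, 1 animal left out at a time and, added after the depths were seen, thinning and removal of the 2 shallow a-gp120 libraries. On simulated counts for 18984 genes of the main comparison, 190 of 200 changed genes were recovered (95%) and 17 unchanged ones were called. The changed genes were drawn above a minimum level and given set folds. No effect of experiment, sex or a single deviant animal was simulated, so the recovery does not carry over to such effects in the real libraries. Replicates are separate animals. No 2 libraries of an arm agreed within sampling noise (12 pairs, lowest chi-square per degree of freedom 6.59).

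Named genes were the 12 with the smallest p in each direction with no overlap of the arms and a mean of at least 5 CPM, all members of the IL-34 and CSF1 list, and a few members of each other list. Gene models without a symbol were counted but not named. Some members counted in the lists are not reported here by name. The comparison and the 37 lists were chosen with earlier results of these data known. Of 500 distinct genes listed, 2 are absent from the table. Median log2 fold changes in 4 classes of gene length ran from -0.01 to 0.02.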

Additional observations from a re-analysis of the deposited data

Results flagged for a closer look

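In 218 sets of 4 forebrain libraries of an arm, the values of single genes and the means of gene lists were looked at. Of these sets, 13 held an animal far from the other 3 of its arm. Chance flags about 1 in 20, or 10.9 of the 218, and the number over both kinds of set is near that. All 13 were sets of single genes, and for genes alone chance gives fewer than 10.9. In a-gp120, animal 15 was the lowest for Siglech (21.8 CPM against 28.7 to 29.8), Cx3cr1 (46.2 against 57.4 to 59.6), Cd33 (14.4 against 17.04 to 17.4), Bin2 (3.73 against 6.99 to 7.24), Ikzf1 (6.26 against 8.55 to 8.96) and Csf1 (11.1 against 14.3 to 14.9), and the highest for Ttr (43.4 CPM against 0.066 to 0.372). In the same arm, animal 8 was the highest for Fyb1 (13.6 CPM against 10.0 to 10.3) and Folr1 (0.987 against 0.316 to 0.424), and animal 1 for Ptprz1 (584 against 519 to 528). In Het, animal 20 was the highest for Enpp6 (60.9 CPM against 50.2 to 50.6) and Syk (6.49 against 5.22 to 5.35), and animal 21 the lowest for Pik3cg (3.75 against 4.39 to 4.42). Of the 13, 7 were in the library of a-gp120 animal 15, which was 1 of the 2 shallow ones, and the part of depth was not tested.

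The difference between the experiments differed between the pair of control arms and the pair of KO and a-IL34 arms for 2 genes by the interaction term. Il34 had a log2FC of -0.75 for Het minus a-gp120 and -2.40 for KO minus a-IL34, each in its own fit, and the difference in the fit of all 15 forebrain libraries was 1.58 (SE 0.12, edgeR adjusted p = 2.45e-05). Lgals3bp had -0.69 and -2.52 in the same pairs, and 1.76 for the difference in the fit of 15 (edgeR adjusted p = 0.00372), and its a-IL34 mean of 32.2 CPM was the highest of the 4 arms.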

How the results depend on the processing

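For Het minus a-gp120 forebrain the count of 157 genes became 425 with DESeq2, 919 with no count filter, 71 with at least 5 CPM in 4 libraries and 89 without the 2 shallow a-gp120 libraries. It was 163 and 176 under 2 other scalings, 197 without sex, 175 with 15 libraries in 1 fit and 118 after thinning, and 67 to 415 with 1 animal left out. DESeq2 called all 157 again, and 63 of the 67 called without Het animal 21 were among them. KO minus a-IL34 (89) gave 249 with DESeq2, 680 with no filter, 23 at 5 CPM, 228 without sex, 275 with 15 libraries and 2 to 146 with 1 animal left out. The isolates (333) gave 748, 720, 176 and, with 15 libraries, 160, and 67 to 329 with 1 animal left out. The test of the difference between comparisons (2) gave 28 with DESeq2, 114 with no filter, 4 without sex and 2 to 33 with 1 animal left out. Csf1 changed sign to -0.037 without a-gp120 animal 15 and -0.076 without both shallow libraries (from -0.037 to 0.12 with 1 animal left out) and was never called. The cause of these shifts was not tested. Il34 and Csf1r stayed lower and past the threshold in every fit, at -0.65 to -0.82 and -0.82 to -1.04. Of 33 other genes picked by rank or list, 19 kept their call in each of the 17 alternatives that tested them, 14 lost it in at least 1 and 0 changed direction, over 552 fitted values, since some genes were not tested in every alternative. No paired analysis was possible because the arms share only number 1, which belongs to different animals of different experiments. Other scalings moved the median of all genes by -0.0025 and -0.0054. The shallow libraries of a-gp120 animals 8 and 15 limit precision for genes at low counts.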

Other observations

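Lcn2, which encodes lipocalin 2, an iron-binding acute-phase protein of reactive astrocytes and neutrophils, lay below the level at which genes were named and is given here after its values were seen. It was at 0.0798, 0.166, 0.134 and 0.230 CPM in Het and at 0.902, 0.843, 1.71 and 2.63 CPM in a-gp120, a log2FC of -3.33 (edgeR adjusted p = 0.00299). The arms did not overlap. KO minus a-IL34 was -3.08 (edgeR adjusted p = 0.0406), and the isolates of Het minus a-gp120 gave -2.84 (edgeR adjusted p = 0.0264). The first of these calls was lost without KO animals 3, 6 or 24 or a-IL34 animals 11 or 24 (edgeR adjusted p from 0.0528 to 0.49), and the second without any 1 animal but a-gp120 animal 15 (edgeR adjusted p from 0.0511 to 0.107). Serpina3n, another acute-phase gene of astrocytes, fell by 0.90 in Het forebrain (edgeR adjusted p = 0.0359) and by 1.24 in KO minus a-IL34 (edgeR adjusted p = 0.0153). The call on Serpina3n in KO minus a-IL34 was lost without KO animals 3, 6 or 24 or a-IL34 animal 11 (edgeR adjusted p from 0.0554 to 0.412), and that in Het forebrain without Het animals 1, 21 or 23 or a-gp120 animals 7 or 8 (edgeR adjusted p from 0.0761 to 0.147).

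Slc17a6, the vesicular glutamate transporter of thalamic neurons, varied more among Het animals (29.9, 53.7, 44.3 and 23.5 CPM) than among a-gp120 animals (21.0, 26.5, 20.6 and 20.8 CPM) and did not pass (log2FC 0.77, edgeR adjusted p = 0.156).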
